A study of Mus musculus with 11 samples.

Results

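The replication-dependent core histone genes were taken as every gene whose older mouse symbol starts with Hist1h2, Hist1h3, Hist1h4, Hist2h, Hist3h or Hist4h. The linker histone H1 genes, whose symbols start with Hist1h1, were left out. This gave 61 of the 21957 genes in the count table, of which 18 encode H2A, 18 H2B, 12 H3 and 13 H4. On chromosome 13 lie 48 of them, in the main mouse histone cluster. Another 10 lie on chromosome 3, 2 on chromosome 11 and 1 on chromosome 6. The choice used names alone and no measured value.

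The study measured coding-sequence reads of mRNA and of ribosome footprints, the RNA stretches that translating ribosomes shield from nuclease. The cells were primed OT1 CD8 T cells, mouse cells whose transgenic receptor recognises a peptide of ovalbumin. They were unstimulated (labelled T0) or stimulated for 2 h with beads carrying antibodies against CD3 and CD28, and every group then received cycloheximide, which stalls ribosomes, for 10 min. There were 3 unstimulated and 3 stimulated mRNA libraries, and 3 unstimulated and 2 stimulated footprint libraries (replicates 2 and 3). The stimulated and unstimulated cells share the receptor transgene, the priming and the cycloheximide. Strain background and age of the mice are not given in the sources used here, nor whether replicates came from separate mice or cultures, so the p-values measure only the spread between these libraries. The labels call the mRNA sample total RNA, and whether polyadenylated RNA was selected is not given in the sources used here.

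Core histones H2A, H2B, H3 and H4 form the protein spool of the nucleosome. Dividing cells make most of them during S phase from these clustered, mostly intronless genes, whose mRNAs end in a stem-loop bound by SLBP in place of a poly(A) tail. Many of the genes are near-identical copies, so the split of reads between neighbours of 1 class is uncertain, and class sums carry less of that uncertainty than single genes.

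The sequence upstream of the start site, from RefSeq on build GRCm38.p6, is printed for 6 members on which the results turn, 120 bases each and read 5′ to 3′ on the gene's own strand. Hist2h2bb (chr3:96269580-96269699, plus strand) had the most mRNA counts of all members. Hist3h2ba (chr11:58948791-58948910, plus) had the largest fall in mRNA with all libraries compared. Hist1h2ak (chr13:21753913-21754032, minus) fell in footprints. Hist3h2a (chr11:58954565-58954684, plus) had the highest footprint level relative to mRNA among the members tested for it. Hist4h4 (chr6:136804432-136804551, minus) and Hist1h4j (chr13:21734914-21735033, plus) stand for the H4 genes, the first for its footprints and the second for its mRNA change. Capitals mark the 4 motifs described in the next paragraph on either strand, so that ATTGG is CCAAT read from the other strand.
Hist2h2bb: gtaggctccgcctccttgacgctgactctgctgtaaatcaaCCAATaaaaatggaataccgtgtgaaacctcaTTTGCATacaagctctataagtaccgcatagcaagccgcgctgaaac
Hist3h2ba: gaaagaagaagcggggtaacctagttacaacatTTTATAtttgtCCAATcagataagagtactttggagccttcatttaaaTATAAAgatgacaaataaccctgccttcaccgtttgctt
Hist1h2ak: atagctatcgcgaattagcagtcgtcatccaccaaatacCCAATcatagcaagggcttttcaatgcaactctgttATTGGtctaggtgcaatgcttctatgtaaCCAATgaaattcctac
Hist3h2a: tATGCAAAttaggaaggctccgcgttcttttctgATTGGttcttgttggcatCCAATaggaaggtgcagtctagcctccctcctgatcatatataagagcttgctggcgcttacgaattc
Hist4h4: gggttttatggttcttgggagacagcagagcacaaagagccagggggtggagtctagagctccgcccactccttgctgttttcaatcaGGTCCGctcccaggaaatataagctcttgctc
Hist1h4j: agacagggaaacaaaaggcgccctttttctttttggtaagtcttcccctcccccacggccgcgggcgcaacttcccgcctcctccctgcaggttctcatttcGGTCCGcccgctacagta

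CCAAT is the core of the NF-Y site, TATAAA the TATA box, TTTGCAT most of the octamer bound by Oct1, and GGTCCG the end of the H4 subtype element bound by HiNF-P. They were searched on both strands of the 250 bases upstream of the start, and occurrences that share letters were each counted. The search covered 56 of the 61 members, all but Hist1h2bc, Hist2h2be, Hist1h3a, Hist1h3f and Hist2h4. CCAAT was present in 18 of 18 H2A, 16 of 16 H2B, 8 of 10 H3 and 3 of 12 H4 sequences, against 34.5% of 27025 mouse promoters of the same length. GGTCCG was present in 9 of 12 H4 sequences, 1 of 16 H2B, 1 of 10 H3 and 0 of 18 H2A, against 6.82% of all promoters. TTTGCAT was found in 7 of 18 H2A, 6 of 16 H2B, 0 of 10 H3 and 1 of 12 H4 sequences, against 4.06% of all promoters. TATAAA was found in 25 of 56 members and in 13% of all promoters. The H2A and H2B genes thus share the CCAAT letters in every sequence searched, as all 4 printed H2A and H2B sequences show, and most H4 sequences carry GGTCCG. In 10 back-to-back pairs of an H2A and an H2B gene, the start sites lie 164 to 281 bases apart. The 2 genes of such a pair share most of the bases searched, so their matches are not independent. Hist1h2bq and Hist1h2br were identical over the 250 bases. A match says only that the letters are present.

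Library totals were 21658263 to 39346699 counts for mRNA and 11136 to 23641 for footprints, which sum to 85433. Levels are given as CPM, counts scaled to the library's size. In a single footprint library, 0 counts could hide up to 3, or 127 to 269 CPM. These limits cover counting error only. CPM below are after TMM scaling, edgeR's adjustment for composition, unless a share of the library is named. Of the CD8 T cell markers, 7 of 7 were detected, with a summed mRNA level of 2605 to 2922 CPM in unstimulated and 1964 to 3134 CPM in stimulated libraries. The summed levels of the CD4 and regulatory T cell markers (3 genes) were 11.8 to 24.8 CPM, and those of the B cell (4), myeloid (5), NK (2) and erythroid (2) markers were at most 8.10 CPM in any mRNA library. None of these marker genes was at 0 in all 6 libraries. Their part in the histone results was not tested.

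The mRNA libraries differed in a way that the groups do not explain. Gm10800, Gm10801, Gm20594 and Lars2 together took 4.09, 14.9 and 5.14% of the unstimulated libraries 1 to 3 and 25, 22.5 and 12.8% of the stimulated ones. Reads on 1538 olfactory receptor, vomeronasal receptor and defensin genes, which T cells are not known to use, ran from 0.030 to 0.188% in unstimulated and from 0.0685 to 0.275% in stimulated libraries. Unstimulated replicate 2 and stimulated replicate 3 stand apart from their groups in both measures, and the mRNA changes described below are given with and without them.

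Core histone mRNA was lower after 2 h of stimulation. The 61 genes took 1.85, 1.46 and 2.07% of the unstimulated mRNA libraries and 0.797, 0.825 and 1.14% of the stimulated ones. The lowest unstimulated library was thus above the highest stimulated one. The summed level was 16875 ± 2617 CPM (SD, n = 3) in unstimulated and 9970 ± 3327 CPM (SD, n = 3) in stimulated cells, 1.69-fold lower or -0.76 on the log2 scale. On this scale the libraries did not overlap either: the sums were 17182, 14119 and 19325 CPM before and 7616, 8518 and 13776 CPM after stimulation. Stimulated replicate 3 was close to unstimulated replicate 2. Without these 2 libraries the log2 difference of the sums was -1.18. In bulk libraries, fewer cells that make histone mRNA and less histone mRNA per cell cannot be told apart.

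**Figure D1:**
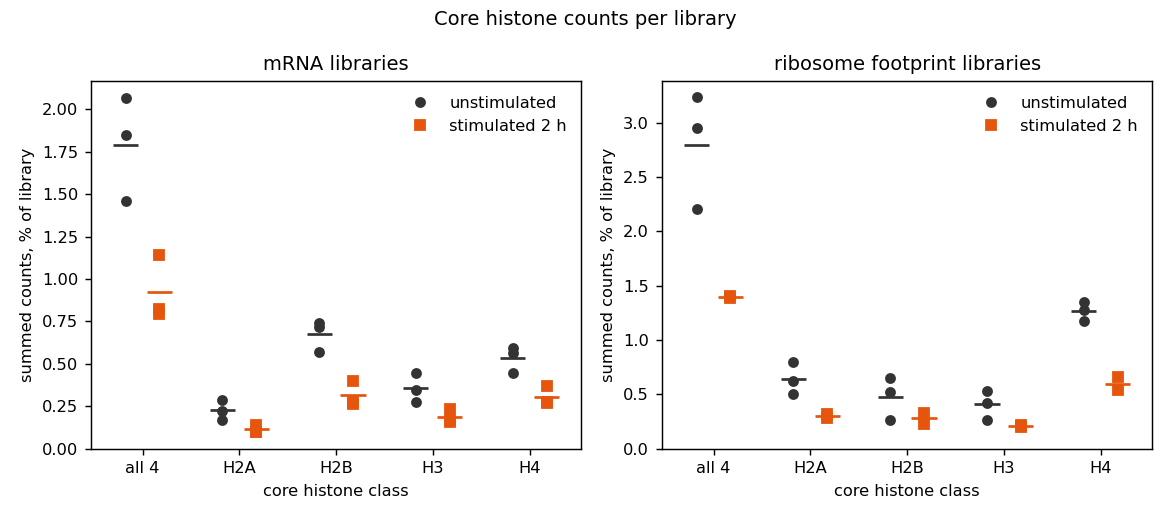
Summed counts of the core histone genes as a percentage of each library (vertical axis, from 0) for all 61 genes and by class, in mRNA (left) and footprints (right); each point is 1 library and each bar the group mean. All 61 genes together lie between 1.46 and 2.07% in unstimulated and between 0.797 and 1.14% in stimulated mRNA libraries.

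Across the mRNA libraries, a higher share of the 4 high-count genes mostly went with a lower share of core histones. The order was reversed between unstimulated replicates 1 and 3, and between unstimulated replicate 2 and stimulated replicate 3. With those 4 genes and the olfactory, vomeronasal and defensin genes taken out of the totals, core histones made up 1.93, 1.72 and 2.18% of the remaining unstimulated counts and 1.07, 1.07 and 1.31% of the remaining stimulated counts. The groups still did not overlap. Unstimulated replicate 2 and stimulated replicate 3, whose shares of the 4 genes were alike at 14.9 and 12.8%, stood at 1.72 and 1.31%. The part of these genes in the histone difference was not tested further.

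**Figure D2:**
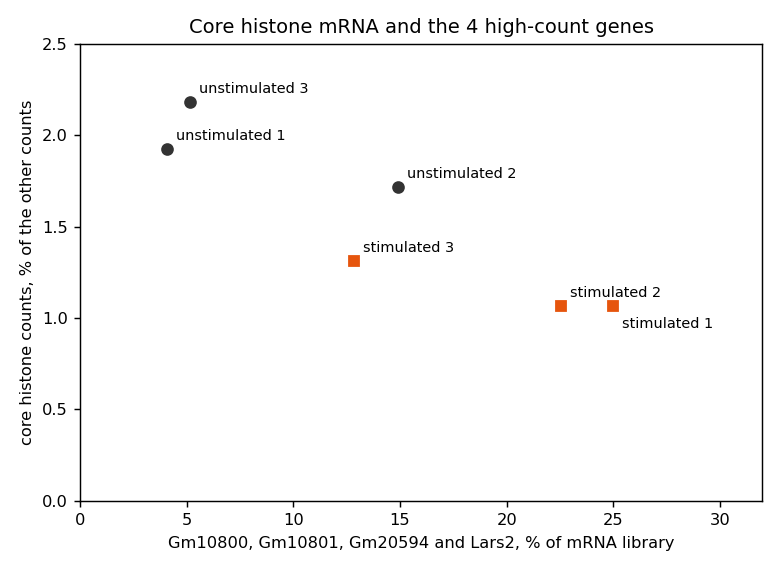
Core histone counts as a percentage of the counts left after removing the 4 high-count genes and the olfactory, vomeronasal and defensin genes (vertical axis) against the share of the 4 genes in the library (horizontal axis), 1 point per mRNA library. The 3 unstimulated libraries (circles) lie between 1.72 and 2.18%, the 3 stimulated ones (squares) between 1.07 and 1.31%.

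Gene by gene, 54 of the 61 members passed edgeR's filter on low counts in mRNA. By edgeR's quasi-likelihood test with Benjamini-Hochberg adjustment over all genes tested, 13 of the 54 fell and 0 rose at an adjusted p under 0.05. Over all 18886 genes tested, 4.68% fell and 3.58% rose. DESeq2 also found 0 members higher, and no member was higher at an unadjusted p under 0.05. Among the 54, 50 had a log2 change below 0, and their median was -0.74 against 0.39 for all genes tested. The difference between these medians was -1.13, and it was -0.70 when only genes of at least 10 CPM were scaled and tested, where the median of all genes was 0.00. The TMM-scaled mRNA levels of the groups did not overlap in 25 of the 54 members on the lower side and in 1, Hist2h3c1, on the higher side, against 13.6% and 15.4% of all genes. Over all 61 members, the mean level was lower after stimulation in 55 and higher in 6. The 7 members that were not tested are Hist1h2aa, Hist1h2ao, Hist1h2ap, Hist1h2ba, Hist1h2bq, Hist1h2br and Hist1h4m, all with few reads.

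How many members passed depended strongly on the genes and libraries in the fit. Among genes of at least 10 CPM, 45 of 48 members tested fell, where 36.4% of all such genes did. Without unstimulated replicate 2 and stimulated replicate 3, a choice made after seeing the data, 50 of 55 fell, against 38.5% of all genes, and 1, Hist1h2aa, rose. Hist1h2aa had only 2 and 0 counts in the unstimulated and 8 and 10 in the stimulated libraries kept. Olfactory receptor reads per kilobase were also higher in these stimulated libraries (1.75 and 1.28 CPM against 0.156 and 0.227). The 13 members that fell in the full comparison were among those that fell in both of these restricted comparisons. Among genes of at least 10 CPM no member rose, where 36.9% of all genes did, and without the pair of libraries 46.9% of all genes rose. Without unstimulated replicate 3, 5 of 56 members tested fell, and without stimulated replicate 2, 6 of 55 did. The member medians were then -0.66 and -0.82, against 0.36 and 0.31 for all genes. Without unstimulated replicate 2 alone, 49 members fell, as did 6173 of all 19219 genes tested, and 6851 of all genes rose. Without stimulated replicate 3 alone, 47 of 55 members fell, with a median of -1.07 against 0.34 for all genes. The 13 members called in the full comparison had log2 changes of -1.37 to -0.87 there and of -2.28 to -1.40 without the pair of libraries. The 13 other members named had -0.95 to -0.20 and -1.61 to -0.70, and all 13 passed without the pair. None of these 13 passed when unstimulated replicate 3, stimulated replicate 1 or stimulated replicate 2 was the library left out. Without the pair, the class sums differed by -1.25 in log2 for H2A, -1.31 for H2B, -1.18 for H3 and -0.99 for H4.

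**Figure D3:**
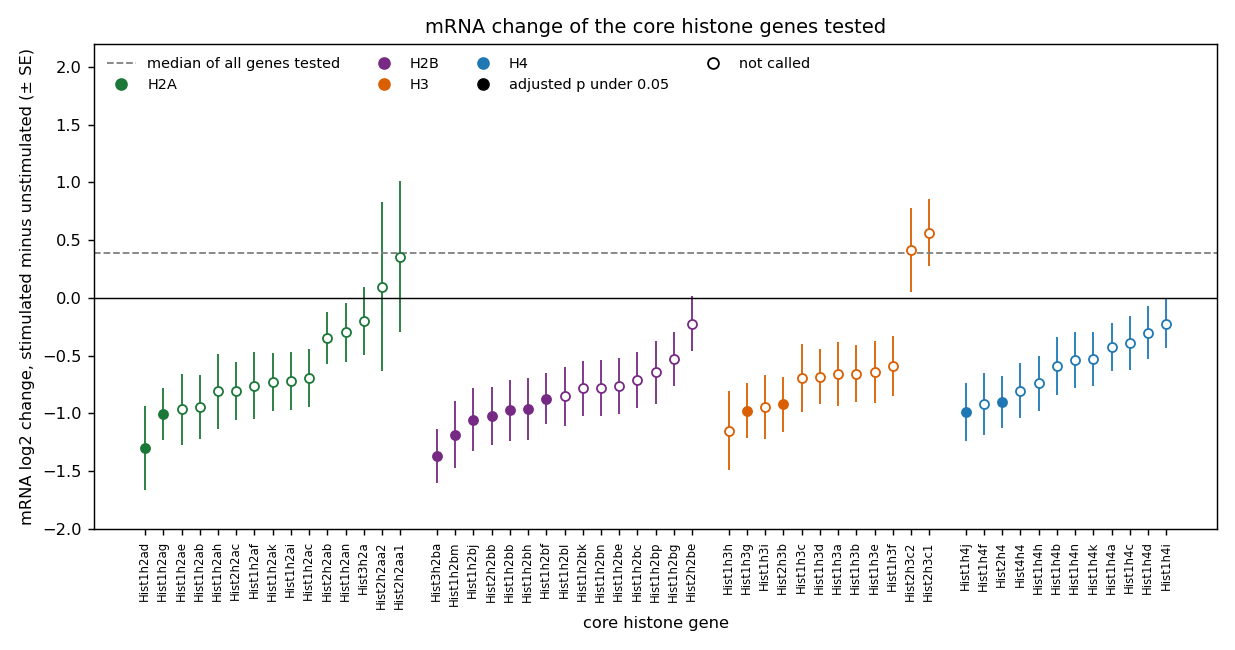
Log2 change of mRNA, stimulated minus unstimulated, for the 54 core histone genes tested (horizontal axis, ordered within class), with standard errors as bars; filled points passed an adjusted p under 0.05 by edgeR, and the dashed line is the median of all genes tested, 0.39. Of the 54 points, 50 lie below 0, and the 13 filled points are all among these.

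The H2B genes held 7 of the 13 members that fell, of 15 tested. In TMM-scaled CPM, the H2B sum was the only class sum whose mRNA libraries did not overlap. As shares of the library, no class overlapped. The lowest unstimulated and highest stimulated shares were 0.172 and 0.143% for H2A and 0.568 and 0.397% for H2B. They were 0.276 and 0.236% for H3 and 0.444 and 0.367% for H4. The H2B sum was 6362 ± 766 CPM (SD, n = 3) in unstimulated and 3418 ± 1199 CPM (SD, n = 3) in stimulated cells, a log2 difference of -0.90. Hist2h2bb, the H2B gene on chromosome 3 that alone held 8.52% of all core histone mRNA counts, stood at 1589, 1365 and 1583 CPM in unstimulated and at 540, 663 and 1024 CPM in stimulated libraries. Every unstimulated library was above every stimulated one. The log2 change of Hist2h2bb was -1.03 ± 0.25 (SE), with an adjusted p of 0.0281 by edgeR.

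Hist3h2ba, an H2B gene on chromosome 11, had lower counts but the largest fall of any member, with 29.5, 23.8 and 32.6 CPM before and 7.59, 9.91 and 15.8 CPM after stimulation. The groups were well apart, and the log2 change was -1.37 ± 0.23 (SE, edgeR adjusted p = 0.00484). RefSeq places another gene, Gm51864, over Hist3h2ba, and the handling of strand in the counting is not given in the sources used here. Hist1h2bm stood at 546, 399 and 556 CPM before and at 147, 184 and 329 CPM after stimulation. These values did not overlap, and the log2 change was -1.19 (edgeR adjusted p = 0.0281). The other H2B genes that fell, Hist1h2bj, Hist1h2bb, Hist1h2bh and Hist1h2bf, had log2 changes of -1.05, -0.97, -0.96 and -0.87. Hist1h2bn had one of -0.78 that did not pass (edgeR adjusted p = 0.0763) and fell by 1.34 without the pair of libraries that stand apart (5.89e-15). It did not pass without unstimulated replicate 3 (0.226 by edgeR) or stimulated replicates 1 or 2 (0.175 and 0.210). In H2B, the calls for Hist3h2ba, Hist1h2bm and Hist1h2bj held whichever mRNA library was left out. Those for Hist1h2bb, Hist1h2bh and Hist1h2bf were each lost without unstimulated replicate 3 (adjusted p = 0.0962, 0.0774 and 0.0611 by edgeR), stimulated replicate 1 (0.0588, 0.0822 and 0.0601) or stimulated replicate 2 (0.0895, 0.0855 and 0.113). Hist2h2bb lost its call without unstimulated replicate 3 (0.0603) or stimulated replicate 2 (0.0561).

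Of the H2A genes, 2 of 15 tested fell. Hist1h2ag stood at 65.6, 59.0 and 92.9 CPM in unstimulated and at 29.5, 32.4 and 46.3 CPM in stimulated libraries. Its groups did not overlap, and the log2 change was -1.01 ± 0.22 (SE, edgeR adjusted p = 0.0175; 0.0614 without unstimulated replicate 3). Hist1h2ad stood at 86.0, 49.97 and 110.6 CPM before and at 20.6, 25.1 and 54.5 CPM after stimulation, so that its highest stimulated library exceeded its lowest unstimulated one. Its log2 change was -1.30 ± 0.36 (SE, edgeR adjusted p = 0.0481). The most abundant H2A genes, Hist1h2ak and Hist1h2ab, had log2 changes of -0.73 and -0.95 that did not pass (edgeR adjusted p = 0.113 and 0.0584). Both fell without unstimulated replicate 2, with log2 changes of -1.14 and -1.41 (edgeR adjusted p = 7.07e-06 and 1.66e-06), without stimulated replicate 3, with -1.02 and -1.26 (0.00409 and 0.00445), and by DESeq2 (adjusted p = 0.0034 and 0.000779). Hist2h2ac, the H2A gene outside chromosome 13 with the most mRNA, stood at 263, 228 and 321 CPM before and at 121, 128 and 215 CPM after stimulation. Its groups did not overlap, but its log2 change of -0.81 did not pass (edgeR adjusted p = 0.0734). It fell by 1.20 without unstimulated replicate 2 and by 1.13 without stimulated replicate 3 (edgeR adjusted p = 3.79e-06 and 0.00117).

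In the H3 class, 2 of 12 tested genes fell, Hist1h3g by 0.98 and Hist2h3b by 0.92 on the log2 scale (edgeR adjusted p = 0.0273 and 0.0346). Hist1h3g stood at 217, 191 and 257 CPM before and at 89.3, 93.9 and 154 CPM after stimulation, with no overlap. Hist2h3b, the H3 gene outside chromosome 13 with the most mRNA, stood at 141, 136 and 215 CPM before and at 71.9, 77.1 and 110 CPM after, also without overlap. Both calls were lost without unstimulated replicate 3 (edgeR adjusted p = 0.0806 for Hist1h3g and 0.225 for Hist2h3b), stimulated replicate 1 (0.0539 and 0.0629) or stimulated replicate 2 (0.0844 and 0.0872). The H3 genes with the most mRNA, Hist1h3e, Hist1h3f and Hist1h3c, had log2 changes of -0.64, -0.59 and -0.69 that did not pass (edgeR adjusted p = 0.192, 0.232 and 0.211). All 3 fell without unstimulated replicate 2, with log2 changes of -1.06, -1.01 and -1.17 (2.54e-05, 4.15e-05 and 3.27e-05 by edgeR), and without stimulated replicate 3, with -0.96, -0.89 and -1.08 (0.00732, 0.0135 and 0.0111).

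Of the H4 genes, 2 of 12 tested fell. Hist2h4 on chromosome 3 stood at 484, 420 and 485 CPM in unstimulated and at 199, 217 and 328 CPM in stimulated libraries, and Hist1h4j on chromosome 13 at 296, 238 and 322 CPM and at 109, 120 and 202 CPM. Neither gene's groups overlapped, and the log2 changes were -0.90 and -0.99 (edgeR adjusted p = 0.0308 and 0.0333). Hist2h4 lost its call when any of 4 mRNA libraries was left out, unstimulated replicates 1 and 3 (0.0523 and 0.106 by edgeR) and stimulated replicates 1 and 2 (0.0889 and 0.127), and Hist1h4j when any of 3 was, unstimulated replicate 3 (0.0640) and stimulated replicates 1 and 2 (0.0580 and 0.0796). Hist1h4d, the H4 gene with the most mRNA, stood at 961, 821 and 1004 CPM before and at 608, 658 and 991 CPM after stimulation. Its groups overlapped, and its log2 change of -0.30 did not pass (edgeR adjusted p = 0.386). It fell by 0.66 without unstimulated replicate 2 and by 0.56 without stimulated replicate 3 (edgeR adjusted p = 0.000429 and 0.0190). Hist1h4h, another abundant H4 gene, stood at 581, 456 and 624 CPM before and at 263, 286 and 444 CPM after stimulation. Its groups did not overlap, and its log2 change of -0.74 did not pass (edgeR adjusted p = 0.0889). Hist1h4f, Hist4h4 and Hist1h4c had log2 changes of -0.92, -0.81 and -0.39 that did not pass either (0.0607, 0.0630 and 0.331 by edgeR). All 4 fell without unstimulated replicate 2, with log2 changes of -1.14, -1.34, -1.18 and -0.78 in the order named, and without stimulated replicate 3, with -1.02, -1.26, -1.11 and -0.66. These had edgeR adjusted p of at most 0.0119. Neither Hist1h4d nor any of these 4 genes passed when any other single mRNA library was left out.

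By place in the genome, 41 of the 41 tested members on chromosome 13 had a log2 change below 0 (range -1.30 to -0.22), against 6 of 10 on chromosome 3. The members not tested for few reads are all on chromosome 13. Among them, mean mRNA was higher after stimulation in Hist1h2aa (0.082 to 0.330 CPM) and Hist1h2ba (0.158 to 0.679 CPM). The 4 tested members above 0 are all on chromosome 3, the H2A genes Hist2h2aa1 and Hist2h2aa2 and the H3 genes Hist2h3c1 and Hist2h3c2. They had 8 to 31 counts (the H2A genes) or 68 to 180 counts (the H3 genes) per mRNA library, and none of them passed. H2A and H2B genes of the cluster often lie back to back, and 10 such pairs have start sites 164 to 281 bases apart. In 7 pairs both genes were tested. The 2 genes of a pair differed in log2 change by 0.03 to 0.43, with a median difference of 0.13. In unstimulated cells Hist1h2ah stood at 22.4 CPM and its partner Hist1h2bk at 290 CPM, whereas Hist1h2ak and Hist1h2bn stood at 570 and 613 CPM, and Hist1h2bf and Hist1h2ad at 88.4 and 82.2 CPM.

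The make-up of the histone mRNA pool, which no library scaling can alter, also differed between the states. H2B genes made up 38.7, 38.9 and 35.9% of core histone mRNA counts in unstimulated libraries and 33.5, 34.3 and 34.7% in stimulated ones. H4 genes made up 30.5, 30.4 and 28.6% before and 34.0, 33.3 and 32.1% after. Neither class overlapped between the states, H2B with the lower and H4 with the higher share after stimulation. H2A, at 11.8 to 14.0% and 12.01 to 12.8%, and H3, at 18.8 to 21.5% and 19.8 to 20.7%, overlapped.

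**Figure D4:**
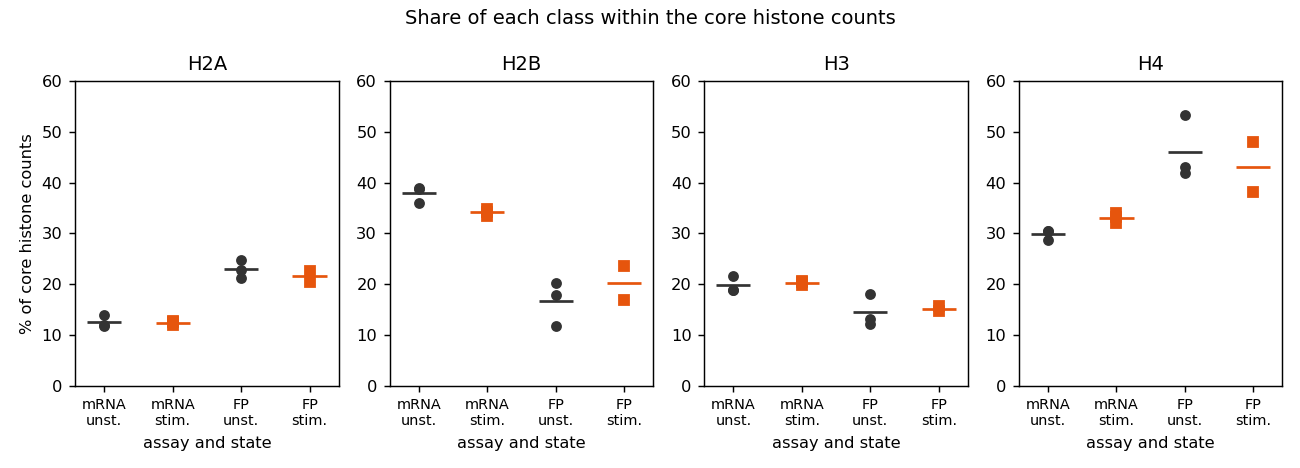
Share of each histone class within the core histone counts of a library (vertical axis, %), for mRNA and footprint (FP) libraries in unstimulated (unst.) and stimulated (stim.) cells; points are libraries and bars group means. H2B lies between 33.5 and 38.9% in mRNA and between 11.8 and 23.5% in footprints, and H4 between 28.6 and 34.0% in mRNA and between 38.2 and 53.3% in footprints.

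Ribosome footprints on the core histone genes were lower after stimulation as well. The genes took 2.21, 3.23 and 2.95% of the unstimulated footprint libraries and 1.41 and 1.38% of the stimulated ones, from 246, 471, 450, 293 and 327 footprints. The stimulated libraries lay close together and below all unstimulated ones. The summed level was 28205 ± 2763 CPM (SD, n = 3) before and 13581 ± 46.9 CPM (SD, n = 2) after stimulation, 2.08-fold lower. The 4 high-count genes took at most 0.734% of any footprint library, in unstimulated replicate 2. Over all 61 members, mean footprint levels were lower after stimulation in 44, higher in 7 and 0 in both states in 10.

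The log2 differences of the class sums in footprints were -1.15 for H2A, -0.79 for H2B, -0.98 for H3 and -1.14 for H4. In mRNA they were -0.79, -0.90, -0.72 and -0.61 in the same order. The footprint groups did not overlap in H2A, H3 and H4 and overlapped in H2B. The H4 sum was 12892 ± 802 CPM (SD, n = 3) before and 5858 ± 960 CPM (SD, n = 2) after stimulation.

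Of the members, 13 passed edgeR's filter on low counts in footprints, and DESeq2 tested 22. By edgeR 3 of the 13 fell, against 3.52% of the 256 genes tested. None rose, by edgeR, by DESeq2 or at an unadjusted p under 0.05, against 5.86% of all genes. The filter can be passed through 1 state alone. Hist1h2ak, Hist1h2bb, Hist1h2bm, Hist1h3e and Hist1h3f had 10 or more footprints only in unstimulated libraries, which favours lower values after stimulation among the 13. Hist2h4 and Hist4h4 had more than 10 in every footprint library. Hist2h4 had 29, 70 and 56 footprints in unstimulated and 24 and 44 in stimulated libraries, which is 3017, 4622 and 3475 CPM and 1110 and 1832 CPM. The groups did not overlap, and the log2 change was -1.34 ± 0.25 (SE, edgeR adjusted p = 5.7e-06). Hist4h4 had 38, 38 and 32 footprints before and 23 and 31 after, or 3954, 2509 and 1986 CPM and 1064 and 1291 CPM. Its log2 change was -1.20 ± 0.30 (SE, edgeR adjusted p = 0.00140), and its groups did not overlap.

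Hist1h2ak, an H2A gene, had 5, 23 and 17 footprints before and 7 and 4 after stimulation. In CPM these are 520, 1519 and 1055 against 324 and 167, without overlap, and the log2 change was -2.11 ± 0.62 (SE, edgeR adjusted p = 0.00828). With so few footprints these calls were fragile. Hist1h2ak lost its call without either stimulated library (adjusted p = 0.0704 and 0.460 by edgeR without replicates 2 and 3), and Hist4h4 without unstimulated replicate 1 (0.0750) or stimulated replicate 2 (0.147). Without unstimulated replicate 2 or 3, Hist1h2ak did not pass the filter and was not tested. The call of Hist2h4 held whichever footprint library was left out. DESeq2 called 1 member lower, as it did 6 of all 533 genes tested. Without the filter on low counts edgeR called 0 members and 1 of all 10647 genes, with an adjusted p of 0.763 for each of the 3 members.

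Translational efficiency, the footprint level relative to the mRNA level, was tested as the change in that ratio with stimulation. Of the 13 members tested, 0 passed in either direction by edgeR (0% of the 255 genes tested) or by DESeq2, and 1 was lower and 0 higher at an unadjusted p under 0.05. The 1 lower was Hist1h2ak, which passed the filter on footprints through unstimulated libraries alone. For the sums, footprints over mRNA stood at 1.67 in unstimulated and 1.36 in stimulated cells, as a ratio of CPM. It was 3.03 and 2.36 for H2A, 0.747 and 0.802 for H2B, 1.22 and 1.01 for H3, and 2.57 and 1.79 for H4. A ratio of 1 means the same share of footprints as of mRNA reads. No test of the change in these ratios was made.

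The classes differed between footprints and mRNA within a state. H2B held 37.8 ± 1.7% (SD, n = 3) of core histone mRNA counts in unstimulated cells but 16.6 ± 4.3% (SD, n = 3) of footprints. H4 held 29.9 ± 1.1% (SD, n = 3) of mRNA counts and 46.1 ± 6.3% (SD, n = 3) of footprints, and H2A 12.6 ± 1.2% (SD, n = 3) and 22.9 ± 1.9% (SD, n = 3). In each of these 3 classes the footprint libraries lay apart from the mRNA libraries in both states. In H3, at 18.8 to 21.5% of mRNA and 12.2 to 18.0% of footprints in unstimulated cells, the 2 kinds of library did not overlap either.

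Much of the H4 footprint signal came from a pair of genes outside chromosome 13. Hist2h4 and Hist4h4 together held 15.6% of the H4 mRNA counts but 48.7% of the H4 footprints. In unstimulated cells Hist2h4 had 3705 CPM in footprints and 463 CPM in mRNA, a ratio of 8.0, and Hist4h4 had 2816 and 361 CPM, a ratio of 7.79. Among the 255 genes tested for this difference, they ranked 5 and 7 by the size of the log2 ratio, which was 3.02 ± 0.28 (SE, edgeR adjusted p = 5.9e-25) and 2.92 ± 0.30 (SE, edgeR adjusted p = 2.3e-20). In stimulated cells the log2 ratios were 2.58 and 2.51, both called. Without the pair of mRNA libraries that stand apart, the 2 genes had 2.82 and 2.64 in unstimulated and 2.87 and 2.84 in stimulated cells. The H4 genes with the most mRNA, Hist1h4d and Hist1h4f on chromosome 13, had log2 ratios of 0.77 and 0.97 in unstimulated cells. Because the mouse H4 genes encode nearly the same protein from similar coding sequences, how footprints of about a ribosome's length were shared among them by the counting bears on these values, and it is not given in the sources used here.

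Hist3h2a, an H2A gene on chromosome 11, ranked 1 of the 255 in both states. It had 14, 19 and 19 footprints in unstimulated and 15 and 20 in stimulated libraries, or 1297 ± 144 CPM (SD, n = 3) and 763 ± 98.4 CPM (SD, n = 2). Its mRNA stood at 6.95 ± 0.87 CPM (SD, n = 3) and 6.04 ± 2.26 CPM (SD, n = 3), from 108 to 318 counts per library. It held 4.87% of core histone footprints and 0.0457% of core histone mRNA counts. Every footprint library was far above every mRNA library, and the log2 ratio was 7.52 in unstimulated and 6.98 in stimulated cells (edgeR adjusted p = 3.6e-72 and 3.8e-47). It was 7.41 and 7.37 without unstimulated mRNA replicate 2 and stimulated mRNA replicate 3. RefSeq places Trim17 over this gene, and the handling of strand is not given in the sources used here. Its mRNA and footprint changes with stimulation were -0.20 and -0.74 on the log2 scale, and neither passed. Its mRNA fell by 0.70 without both of these mRNA libraries (edgeR adjusted p = 0.000164) and did not pass without 1 of them (0.0989 and 0.155).

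In all, 9 of the 13 members tested had more footprints than mRNA in unstimulated cells by edgeR, and 0 had fewer, where 54.9% and 3.53% of all 255 genes did. In stimulated cells 4 of 13 had more and 0 fewer, where 56.1% and 2.75% of all genes did. Both shares are of members that passed edgeR's filter, not of all 61. Some of them, such as Hist1h2ak and Hist1h3f, passed it through unstimulated libraries alone, which favours higher ratios in that state. The median log2 ratio of the 13 members was 0.91 in unstimulated and 0.37 in stimulated cells, against 0.91 and 0.99 for all 255 genes. DESeq2 found 2 members with fewer footprints than mRNA in unstimulated and 1 in stimulated cells, where 304 and 246 of all 10633 genes had fewer. No member had fewer at an unadjusted p under 0.05 by edgeR. Besides Hist3h2a, Hist2h4 and Hist4h4, the gene that passed in both states was Hist1h2ab, with log2 ratios of 1.60 and 1.48. Hist1h4f, Hist1h2ak, Hist1h3f, Hist1h4c and Hist1h4d passed only among unstimulated libraries, with log2 ratios of 0.77 to 0.97. They ranked 120 to 152 of the 255 genes there, near the median of all genes. Whether the states differ for them was covered by the efficiency test, in which none passed. Of these 5, all but Hist1h4f lost their call without at least 1 library, and so did Hist1h2ab in stimulated cells without stimulated footprint replicate 3 (edgeR adjusted p = 0.123). No H2B gene was among those that passed. The count of 9 fell to 5 with RLE scaling and to 4 when the 4 high-count genes were left out, and rose to 21 with DESeq2, which tested 51 members. Over all genes, these settings gave 109 of 255, 90 of 254 and 3920 of 10633 in the same order. The member count was 5 without unstimulated mRNA replicate 2 and 5 without stimulated mRNA replicate 1 or 2.

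**Figure D5:**
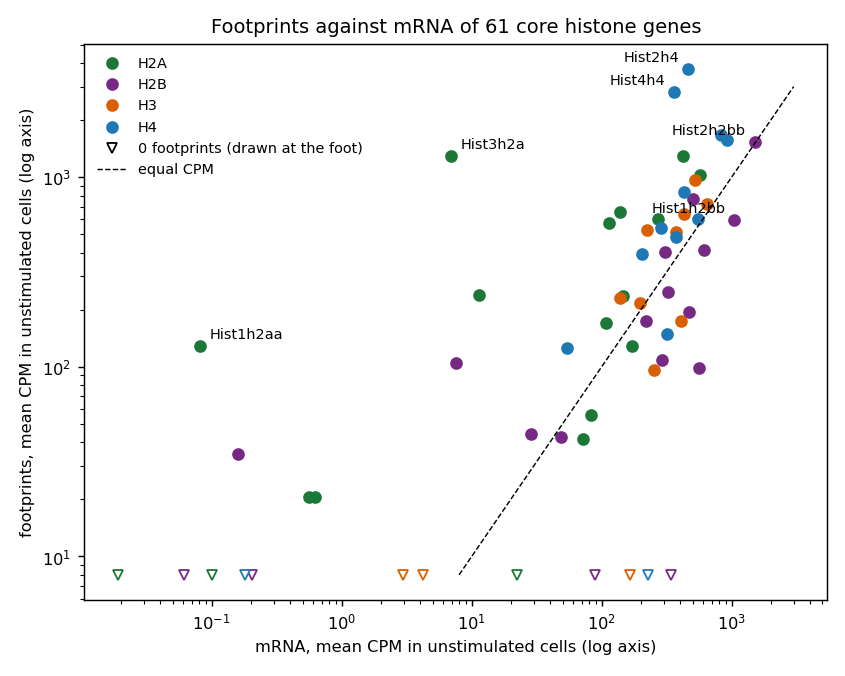
Mean footprint level against mean mRNA level in unstimulated cells (both in CPM, log axes) for the 61 core histone genes, coloured by class; the dashed line marks equal CPM, and open triangles at the foot are genes with 0 footprints in the unstimulated libraries. Hist3h2a, Hist2h4 and Hist4h4 lie far above the line, at ratios of 187, 8.0 and 7.79.

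Other members had mRNA but hardly any footprints. Over all libraries, 10 members had 0 footprints and 24 had under 10. Of all 21957 genes, 10647 had at least 1 footprint. Among the 10, Hist2h3c1, Hist2h3c2, Hist1h2bq, Hist1h2ao, Hist1h2br and Hist1h2ap had only 3 to 931 mRNA counts. Their 0 footprints allow footprint to mRNA ratios of up to 6.97 or more, so they do not show a low ratio. Hist1h2bc, an H2B gene, had 54651 mRNA counts and 0 of 85433 footprints, which allows a footprint to mRNA ratio of up to 0.119, below the 0.747 of its class in unstimulated cells. The H4 gene Hist1h4n, with 37837 mRNA counts and 0 footprints, allows a ratio of up to 0.171, and the H2B gene Hist1h2bf, with 13721, up to 0.473. Hist2h3b had 25292 mRNA counts and 1 footprint. Whether footprints that match several copies were discarded is not given in the sources used here, and the part of such matches was not tested. Among the 24 members with at least 20 footprints, the ratio over all libraries ran from 0.491 for Hist1h2bn to 154 for Hist3h2a, with a median of 1.47. Hist1h2aa, with 32 mRNA counts and 10 footprints in all, lies farther from equal CPM but did not pass edgeR's filter, and RefSeq places Gm33516 over it.

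Per kilobase of gene span, for the 55 members whose span was not over a kilobase, mean mRNA levels over the 6 libraries were highest in Hist2h2bb, at 2287 CPM per kilobase, and Hist1h4d, at 2090. Next came Hist1h4f at 1651 and Hist1h2bb at 1619. The class medians of this level were 647 for H4, 588 for H2B, 369 for H3 and 111 for H2A. The lowest members were near 0, such as Hist1h2ap with 3 mRNA counts in all libraries. Of the 55, 43 were at least 10 times the level of olfactory receptor genes per kilobase in every mRNA library.

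Genes that act on histone genes and histone proteins were measured in the same libraries, and their counts stand beside the 4.68% of all genes that fell and the 3.58% that rose. Of 29 genes for histone gene transcription and 3′ processing, 1 (3.45%) fell in mRNA and 0 rose by edgeR, with a median log2 change of -0.09. The one that fell was E2f1, a transcription factor of S-phase genes (-0.55, edgeR adjusted p = 0.0424). Slbp, whose protein binds the histone stem-loop, stood at 249 ± 14.4 CPM before and 170 ± 32.3 CPM after stimulation (SD, n = 3 each), a log2 change of -0.55 that did not pass (edgeR adjusted p = 0.118). Npat, the coactivator of histone genes at histone locus bodies, and Casp8ap2, another component of these bodies, had log2 changes of -0.29 and -0.57 that did not pass. Without the pair of libraries that stand apart, 26 of the 29 fell and 0 rose, against 38.5% and 46.9% of all genes, and the median was -0.50. Slbp, Npat and Casp8ap2 then fell, with log2 changes of -0.94, -0.66 and -0.96, and E2f1 had one of -0.87.

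Of 27 histone chaperone and nucleosome assembly genes, 5 fell (18.5%) and 1 rose (3.70%), with a median of -0.14. Chaf1a, the large subunit of chromatin assembly factor 1, fell by 0.77 on the log2 scale, and Tonsl and Mms22l, which act together at replication forks, fell by 0.97 and 0.81. Hjurp, the chaperone of the centromeric H3 variant, fell by 0.98, and Cdan1 by 0.64. Ipo4, an importin that carries histones into the nucleus, rose by 0.82 (edgeR adjusted p = 0.0319). Nasp, a chaperone of H3 and H4, stood at 182 ± 11.1 CPM before and 175 ± 38.4 CPM after stimulation (SD, n = 3 each) and did not pass, nor did Asf1b, at -0.69 (edgeR adjusted p = 0.0556). Of 40 DNA replication genes, 5 fell (12.5%) and 0 rose, with a median of -0.48. They include Cdc6, the helicase loader (-0.98), Tk1 and Rrm2, enzymes of nucleotide supply (-0.98 and -0.88), Gins3 of the replicative helicase (-0.71) and Pold1, a replicative DNA polymerase (-0.84). Of 10 replication-independent histone variants tested, 1 (10%) fell, the centromeric Cenpa (-0.98), and 0 rose, with a median of -0.30. In the same comparison the median of all genes tested was 0.39, and that of the core histone genes was -0.74. Without the pair of libraries, 23 of the 27 chaperone and assembly genes fell and 2 rose, 40 of the 40 replication genes fell, and 9 of the 10 variants fell and 1 rose, against the same 38.5% and 46.9% of all genes. Their medians were -0.58, -0.89 and -0.73, against 0.22 for all genes tested and -1.34 for the core histone genes. The CD8 T cell markers fell as well without the pair, 7 of 7, with a median of -0.89. In the full comparison 0 of these 7 markers fell, with a median of -0.41. Nasp then fell by 0.48 and Asf1b by 1.11, and Ipo4 rose by 0.28 (edgeR adjusted p = 0.00263).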

How the data were processed

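The labels describe mRNA and ribosome footprint libraries of unstimulated and stimulated OT1 cells. The submitters' processing notes name STAR 2.5 and the build mm10 (GRCm38). The authors deposited whole-number counts for each gene's coding sequence without normalization, and 0 columns belonged to no sample. The counting tool, annotation release, strand handling and treatment of reads with several matches are not given in the sources used here. Of 21957 Ensembl identifiers, 21838 were named through RefSeq, and 119 rows without a symbol stayed in the library sizes and tests under their identifiers. The members, gene lists and tests were chosen with earlier results of these data known.

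Within an assay, stimulated and unstimulated libraries were compared by edgeR 4.0.16 (R 4.3.3; quasi-likelihood, two-sided), with TMM scaling and edgeR's filter (minimum count 10, minimum total 15). Efficiency was the interaction of assay and stimulation, and footprints were set against mRNA within a state, both in 1 model over the 11 libraries with genes that passed the filter in both assays. Adjusted p-values are Benjamini-Hochberg over all genes tested, with a threshold of 0.05. Sums over members carry no test. The steps were tested on simulated data.

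Members named are, per class, the 3 with the most mRNA, the 2 with the most footprints, the highest outside chromosome 13, and every member that passed a test. From the lists they are Slbp, Npat, Casp8ap2, Nasp, Asf1b, Chaf1a and up to 4 more per list with the smallest p. Members named for a count of 0, for an untested or opposite change, or as partner of a pair, and Ipo4, Cdan1 and Pold1, were chosen after their values were seen. Alternatives were DESeq2 1.42.0, RLE scaling, library totals, other filters, a threshold of 0.01, scaling without 4 genes, a replicate block, and each library left out in turn.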

Additional observations from a re-analysis of the deposited data

How the results depend on the processing

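The mRNA count of 13 members lower became 42 with DESeq2, 25 with RLE scaling, 44 with library totals, 28 with no filter, 45 at 10 CPM or more, 33 without the 4 high-count genes, 38 with a filter at a mean of 50 counts and 1 at an adjusted p of 0.01. Over all genes tested, 2559 of 11041 were lower with DESeq2, 1364 of 18886 with RLE scaling and 4215 of 18886 with library totals. Lower too were 1007 of 21427 genes with no filter, 1151 of 18983 without the 4 genes and 2645 of 12611 with the mean filter. Leaving out 1 library gave 5 to 49 members lower and 0 to 1 higher. The count over all genes shifted widely too, with 478 of 19492 lower without unstimulated replicate 1 and 6173 of 19219 without unstimulated replicate 2. Without unstimulated mRNA replicate 2 and stimulated replicate 3 (chosen after seeing the data) 50 were lower and 1 higher, and the sum differed by -1.18 in log2. That sum ran from -1.06 to -0.60 with 1 library left out, and the footprint sum from -1.12 to -0.98. The 3 members lower in footprints became 1 with DESeq2, 0 with no filter and 1 to 3 with 1 library left out. For footprints against mRNA in unstimulated cells, the 9 higher became 21 (DESeq2), 5 (RLE), 4 (without the 4 genes), 5 (adjusted p of 0.01) and 5 to 11 (1 library left out). The 0 lower became 2 (DESeq2), 1 (library totals), 2 (no filter), 1 (without the 4 genes), 1 (without both libraries) and 0 to 1 (1 left out). Over all genes tested, 3920 of 10633 were higher with DESeq2, 109 of 255 with RLE scaling and 90 of 254 without the 4 genes. Lower were 304 of 10633 with DESeq2, 16 of 255 with library totals, 174 of 10636 with no filter and 16 of 254 without the 4 genes. In stimulated cells the 4 higher members became 12 (DESeq2), 10 (no filter), 7 (without both libraries) and 4 to 6 (1 left out), and the 0 lower became 1 with DESeq2. Of all genes, 2267 of 10633 were higher there with DESeq2 and 931 of 10636 with no filter, and 246 of 10633 were lower with DESeq2. The cause of these shifts was not tested. No change listed here reversed a direction.

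With the replicate number as a block, 34 members were lower in mRNA, as were 1168 of all 18886 genes tested. Same-numbered mRNA libraries of the 2 states had deviation correlations of -0.42, 0.32 and 0.63 over 8492 genes, and 2 of the 3 unstimulated libraries correlated best with another number, so the numbers were not taken to pair the libraries. In footprints the block took away the call of Hist4h4 (edgeR adjusted p = 0.0994) and added one for Hist1h3f (-1.72, 0.0408), so that the count stayed at 3. Restricting the sums to members with unique coding windows was not run, since no coding sequences were used here. The footprint depth, 85433 counts, left 48 members below edgeR's filter, and DESeq2 tested 22.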
